A study of Mus musculus with 12 samples.

Results

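The genes described are 10 genes of serine synthesis and of the cell's response to amino acid shortage: *Phgdh*, *Psat1*, *Psph*, *Shmt2*, *Mthfd2*, *Asns*, *Trib3*, *Chac1*, *Sesn2* and *Ddit4*. They were chosen by name for what they do, with earlier results of these data known. Each had a single entry among the 18351 genes of the deposited table, and all 10 were tested in every comparison. Poly(A) RNA was sequenced from islets isolated from the mouse pancreas, in 4 groups of 3 libraries: wild-type and Aldh1b1tm1lacz null mice at postnatal day 1 (P1), and wild-type and null mice at 8 weeks. Each P1 library pooled the islets of 3 mice, whereas each week 8 library came from 1 animal, with the week 8 null animals named MUT218, MUT219 and MUT229. The null allele is a lacZ knock-in at *Aldh1b1*, which encodes a mitochondrial aldehyde dehydrogenase, and it is present in every cell of the animal throughout life. All islets were kept briefly in RPMI-1640 medium with serum before lysis, a step the wild-type and null groups share. Wild-type and null libraries were compared at each age, the genotype differences of both ages were compared with each other, and week 8 was compared with P1 within each genotype.

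Serine is made from the glycolytic intermediate 3-phosphoglycerate by *Phgdh*, *Psat1* and *Psph* acting in sequence. The mitochondrial enzymes *Shmt2* and *Mthfd2* then split serine into glycine and a folate-bound one-carbon unit and oxidise that unit towards formate, which feeds nucleotide synthesis. When amino acids run short or the endoplasmic reticulum is overloaded, phosphorylation of eIF2 slows translation and favours translation of the transcription factor ATF4, which switches on amino acid synthesis, uptake and tRNA charging genes. *Asns* (asparagine synthesis), *Trib3* (a pseudokinase that restrains ATF4 and insulin signalling), *Chac1* (an enzyme that degrades glutathione), *Sesn2* (a leucine sensor upstream of mTORC1) and *Ddit4* (an inhibitor of mTORC1, also induced by glucocorticoids and hypoxia) are commonly used readouts of this response. Beta and acinar cells both make large amounts of secreted protein and depend on this pathway.

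ATF4 with a C/EBP partner binds composite elements with the core TGATGNAA, so the members' promoters were searched for that core on both strands, in the 300 bases from 250 before to 50 after each RefSeq transcription start (GRCm38.p6). All 10 members matched a promoter entry, and 3 of them, *Chac1*, *Trib3* and *Asns*, held the core, against 1219 of 27025 genes with an entry (4.51%). The stretches below are shown because they carry these matches, with the matched bases in capitals. The *Chac1* stretch is the 250 bases before the start at chr2:119350992-119351241 (plus strand), with the core reading on the opposite strand at position -193 from the start.
Chac1: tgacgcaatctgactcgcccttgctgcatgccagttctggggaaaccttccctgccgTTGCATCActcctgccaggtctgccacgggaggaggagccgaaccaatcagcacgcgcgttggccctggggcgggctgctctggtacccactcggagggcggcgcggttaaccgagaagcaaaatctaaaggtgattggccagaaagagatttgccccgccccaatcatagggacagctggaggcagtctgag
The *Asns* stretch is the 250 bases before the start at chr6:7693210-7693459 (minus strand), with the core at position -23.
Asns: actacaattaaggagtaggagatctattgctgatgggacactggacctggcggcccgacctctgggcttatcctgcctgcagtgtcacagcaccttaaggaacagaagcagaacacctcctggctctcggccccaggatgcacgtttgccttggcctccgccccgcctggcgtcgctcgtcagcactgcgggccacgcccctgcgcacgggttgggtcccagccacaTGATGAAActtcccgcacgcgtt
The *Trib3* stretch is 30 bases just inside the transcript at chr2:152344028-152344057 (minus strand), with the core on the opposite strand at position 15.
Trib3: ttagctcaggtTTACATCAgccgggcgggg
A match is a description of the letters and does not show binding. Of the 3, *Chac1* and *Asns* were lower in week 8 null islets, as described further on, and *Trib3* was not called.

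The libraries held 15212080 to 29248285 reads assigned to genes, and each member had between 196 and 9218 reads in every library. *Aldh1b1* itself had 40 to 121 reads in the wild-type libraries and 0 to 3 in the null libraries, as the labels have it. Summed reads of 30 acinar (exocrine) marker genes took 2.108% to 6.60% of the library in P1 wild-type, 10.6% to 24.7% in P1 null, 47.3% to 52.7% in week 8 wild-type and 12.1% to 22.9% in week 8 null. The genotype groups therefore did not overlap in acinar share at either age, and the difference ran in opposite directions. Summed reads of 10 beta cell markers took 4.59% to 7.49%, 1.24% to 2.99%, 2.58% to 5.15% and 11.7% to 13.5% in the same order, and none of the acinar or beta cell markers was at 0 in any library. In bulk islets, fewer cells of a type and less RNA per cell cannot be told apart. For *Phgdh*, 47.8% of the 50-base words of its transcripts also occur in other annotated genes, mostly pseudogenes named with Gm numbers, so its count depends on how shared reads were assigned, which the sources do not state. The corresponding shares were 1.25% for *Shmt2*, 0.74% for *Psat1* and 0% for the other 7 members. Exons of *Psph* and *Shmt2* overlap antisense genes (*Cct6a* and *Ndufa4l2*), and whether strand was used in counting is likewise not stated.

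Per kilobase of transcript, the member with the highest level in week 8 wild-type islets was *Chac1*, at 5818 ± 784 normalized counts per kb (SD, n = 3), followed by *Asns* at 3314 ± 368 and *Ddit4* at 2211 ± 226. *Mthfd2* stood at 1168 ± 192. *Sesn2* (809 ± 273), *Trib3* (786 ± 282), *Phgdh* (740 ± 147), *Shmt2* (573 ± 154) and *Psat1* (499.9 ± 206) followed, and neighbours in that order differed by less than the larger of their SDs except *Phgdh* and *Shmt2*. *Psph* was the lowest at 193 ± 63.6. In P1 wild-type islets *Ddit4* led at 1474 ± 170.0, and *Asns* (706 ± 181), *Chac1* (613 ± 134), *Sesn2* (579 ± 55.4) and *Mthfd2* (557 ± 192) followed, with neighbours in that order again closer than the larger of their SDs. The enzymes of serine synthesis were low at P1, with *Psat1* at 270.3 ± 67.7, *Phgdh* at 177 ± 63.9 and *Psph* at 123 ± 43.0.

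**Figure D1:**
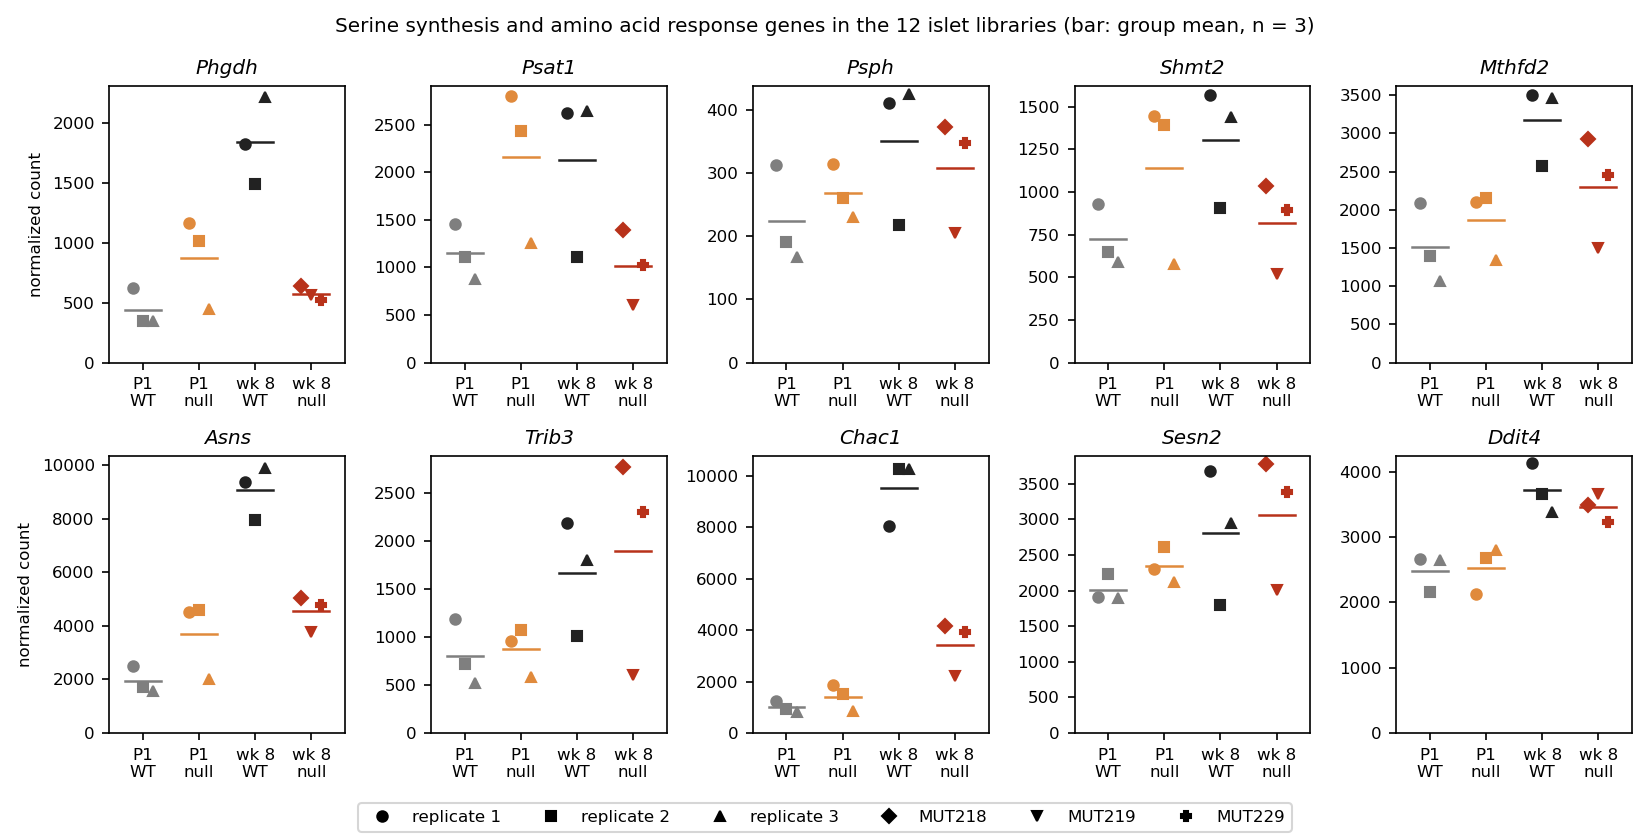
Normalized counts (deposited scale, linear axis from 0) of the 10 members in each of the 12 libraries, with 1 panel per gene, 1 column per group, 1 symbol per library and a bar at the group mean (n = 3). In week 8 null islets *Phgdh*, *Asns* and *Chac1* lie below all wild-type libraries of that age, whereas *Psat1*, *Trib3*, *Sesn2* and *Psph* spread widely within both genotypes.

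At week 8, 3 of the 10 members were lower in null than in wild-type islets and none was higher, by limma on log2(normalized count + 1) with a Benjamini-Hochberg adjusted p under 0.05 over all 18126 genes tested. They were *Phgdh*, *Chac1* and *Asns*, and they were also the 3 members whose genotype groups did not overlap. Of all genes tested, 15.8% were lower, 12.3% higher, and 43.6% had groups that did not overlap. The list is short, so its count rests on few genes. Leaving out 1 library also moved the background: 988 genes were higher and 1688 lower without wild-type replicate 3, in place of 2234 and 2860, and 3168 genes in all were called without MUT218 and 3126 without MUT229. The median log2 fold change was -0.60 over the members and 0.02 over all genes. The week 8 count was 4 with edgeR and 5 with DESeq2 (*Psat1* and *Shmt2* added). It was 6 without wild-type replicate 2, when *Psat1*, *Shmt2* and *Mthfd2* were added, and 0 with the acinar share as a covariate in limma, when no gene of the whole table was called and no member had an unadjusted p under 0.05 (854 genes did).

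At P1 none of the 10 members was called by limma, nor by edgeR or DESeq2, against 0.0548% of genes called higher and 0.0110% called lower. All 10 point estimates were above 0, with a median log2 difference of 0.38 against 0.03 over all genes, and 3 members (*Psat1*, *Asns* and *Phgdh*) had an unadjusted p under 0.05, as did 15.0% of all genes. No member had groups that did not overlap, against 23.6% of all genes. The genotype difference itself differed between the ages for 4 members (*Phgdh*, *Chac1*, *Asns* and *Psat1*), all in the negative direction, against 13.6% of genes in that direction and 8.20% in the other. The last count was 0 with the acinar share as a covariate in limma, when no gene at all was called and no member had an unadjusted p under 0.05 (546 genes did).

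**Figure D2:**
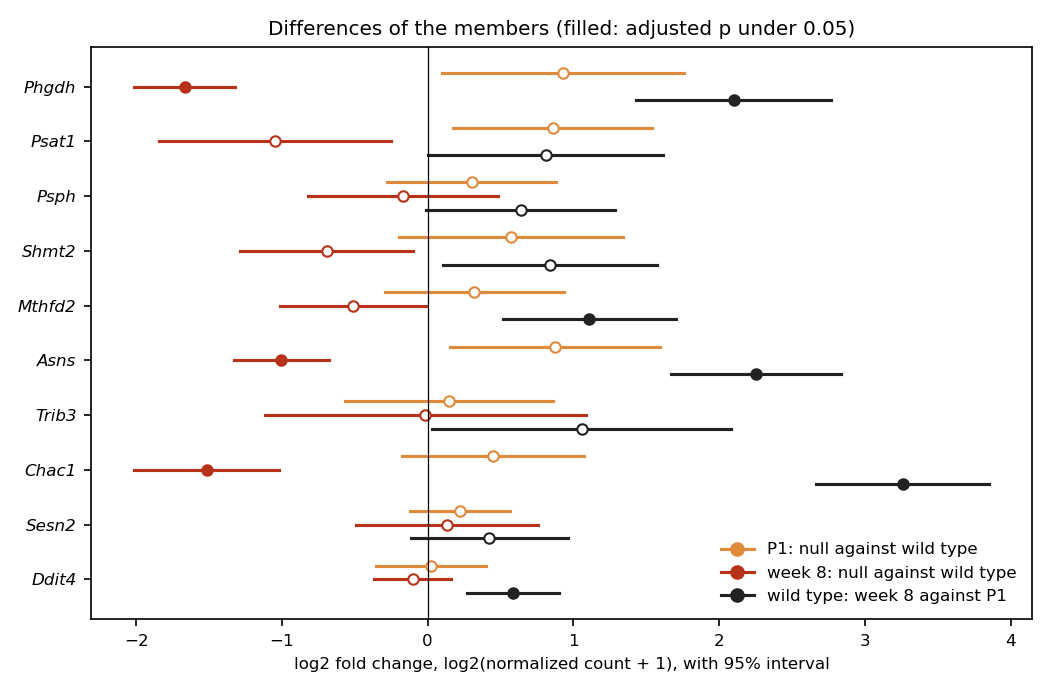
Log2 fold change of each member with its 95% interval for null against wild type at P1 (orange), null against wild type at week 8 (red) and week 8 against P1 in wild type (black); filled points have an adjusted p under 0.05. The P1 points lie at or above 0, the week 8 genotype points for *Phgdh*, *Chac1* and *Asns* lie below 0, and all point estimates of the age difference in wild type lie above 0.

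*Phgdh*, which commits 3-phosphoglycerate to serine synthesis, showed the largest week 8 genotype difference of the members. In week 8 wild-type islets its normalized count was 1822, 1486 and 2214 in replicates 1, 2 and 3. In week 8 null islets it was 637 in MUT218, 564 in MUT219 and 519 in MUT229. Every null animal was below every wild-type animal, with means of 573 ± 59.5 and 1841 ± 364 (SD, n = 3). The log2 fold change was -1.67 ± 0.16 (SE), a ratio of 0.315 (95% interval 0.247 to 0.401), with an adjusted p of 3.08e-04 by limma. In P1 wild-type islets it was 623, 346 and 349.9, and in P1 null islets 1167, 1017 and 443. P1 null replicate 3 fell within the wild-type range while the other null libraries were above it, and the log2 difference of 0.93 ± 0.37 was not called (adjusted p = 0.292 by limma). The difference between the week 8 and P1 effects was -2.60 ± 0.44 (adjusted p = 0.00117 by limma).

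*Psat1*, the aminotransferase of the second step, had normalized counts of 2626, 1113 and 2641 in week 8 wild-type islets. The week 8 null animals had 1393, 607 and 1030.2 in the order MUT218, MUT219 and MUT229. The groups overlapped through 1 wild-type library, replicate 2, which was lower than MUT218. The log2 difference of -1.05 ± 0.36 narrowly missed the threshold (adjusted p = 0.0525 by limma, 95% interval -1.85 to -0.25). It passed with edgeR (adjusted p = 0.0449), with DESeq2 (0.00676), without wild-type replicate 2 (0.00223) and without MUT218 (0.0395). At P1 *Psat1* stood at 1455, 1112 and 883 in wild-type and at 2798, 2433 and 1253 in null libraries, a log2 difference of 0.86 ± 0.30 that was not called (adjusted p = 0.248 by limma). Its week 8 effect differed from its P1 effect by -1.91 ± 0.53 (adjusted p = 0.0203 by limma). That call was lost when any of 5 libraries was left out: P1 null replicate 1 (adjusted p = 0.0604), P1 null replicate 2 (0.0539), week 8 wild-type replicate 1 (0.0552), week 8 wild-type replicate 3 (0.0599) or MUT219 (0.0512).

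*Psph*, the phosphatase of the last step, was the lowest of the members per kilobase. Its normalized counts at week 8 were 411, 218.2 and 425 in wild-type and 373, 205 and 348 in null islets, so both genotypes spanned the same range. The log2 difference was -0.17, with a 95% interval from -0.82 to 0.48. At P1 the values were 313, 191 and 168 in wild-type and 314, 260.5 and 230.1 in null libraries, with an interval from -0.28 to 0.88. These intervals do not show that the genotypes were alike, and *Psph* was not called in any of the 5 comparisons.

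*Shmt2*, which transfers the one-carbon unit from serine to folate in mitochondria, had normalized counts of 1570, 907 and 1440.5 in week 8 wild-type islets. The null animals had 1036, 521 and 897. Wild-type replicate 2 again lay among the null animals, and the log2 difference of -0.69 ± 0.27 was not called (adjusted p = 0.0793 by limma). It was called with DESeq2 (adjusted p = 0.0430) and without wild-type replicate 2 (0.0131). At P1 *Shmt2* stood at 930, 647 and 591 in wild-type and at 1448, 1395 and 578 in null libraries, where P1 null replicate 3 was below every wild-type library. The P1 difference of 0.57 ± 0.34 was not called (adjusted p = 0.454 by limma), and the change of the genotype effect between ages was -1.27 ± 0.49 (adjusted p = 0.0786). That change was called without P1 wild-type replicate 1 (adjusted p = 0.0455), P1 null replicate 3 (0.00933) or week 8 wild-type replicate 2 (0.0390), and with DESeq2 (0.0299).

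*Mthfd2*, which oxidises the folate-bound unit in the same compartment, had normalized counts of 3499, 2578 and 3464 in week 8 wild-type islets and 2923, 1504 and 2450.4 in null islets. MUT218 was above wild-type replicate 2, so the groups overlapped. The log2 difference was -0.51 ± 0.23 (adjusted p = 0.119 by limma), and it was called without wild-type replicate 2 (adjusted p = 0.0468). At P1 the values were 2089, 1398 and 1064 in wild-type and 2108, 2153 and 1337 in null libraries, a difference of 0.32 with a 95% interval from -0.29 to 0.93. The change of its genotype effect between ages, -0.83 ± 0.39, was not called (adjusted p = 0.149 by limma) except without P1 wild-type replicate 1 (0.0387).

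*Asns*, which makes asparagine and carries the ATF4 core in the promoter stretch printed above, was among the more abundant members. Its normalized count was 9349, 7945 and 9897 in week 8 wild-type islets. In week 8 null islets it was 5054, 3764 and 4779.9, so all null animals were below all wild-type animals. The log2 fold change was -1.005 ± 0.15, a ratio of 0.498 (95% interval 0.397 to 0.625), with an adjusted p of 0.00126 by limma. At P1 wild-type libraries held 2497, 1712 and 1581 and null libraries held 4508, 4604 and 2014. P1 null replicates 1 and 2 were above the wild-type range and replicate 3 was within it, and the difference of 0.88 ± 0.32 was not called (adjusted p = 0.261 by limma). The genotype effect changed between the ages by -1.88 ± 0.39 (adjusted p = 0.0038 by limma).

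*Chac1*, a gamma-glutamyl cyclotransferase that acts on glutathione, had normalized counts of 8043, 10262 and 10268 in week 8 wild-type islets. The null animals had 4163, 2219 and 3928. All null animals were below all wild-type animals, and MUT219 was the lowest. The log2 fold change was -1.51 ± 0.22, a ratio of 0.350 (95% interval 0.248 to 0.494), with an adjusted p of 0.00135 by limma. At P1 *Chac1* was lower in both genotypes, at 1249, 929 and 831 in wild-type and 1847, 1519 and 869.96 in null libraries. The P1 difference was 0.45 with a 95% interval from -0.18 to 1.07, and the change of the genotype effect between ages was -1.96 ± 0.39 (adjusted p = 0.00329 by limma).

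The other response genes gave no genotype call at either age. *Trib3* had 2193, 1015 and 1799.5 normalized counts in week 8 wild-type islets and 2772, 608 and 2301 in null islets. Both the highest and the lowest value of that age belonged to null animals, and the log2 difference of -0.02 had a 95% interval from -1.12 to 1.09, wide enough to hold a doubling in either direction. *Sesn2* had 3680.5, 1801 and 2949.9 in wild-type and 3784, 2011 and 3381 in null islets, with a difference of 0.13 and an interval from -0.49 to 0.76. *Ddit4*, by contrast, was even across animals, at 4133, 3664 and 3378 in wild-type and 3488, 3663 and 3226 in null islets. Its difference of -0.10 had the narrowest interval of the members at that age, from -0.37 to 0.16. At P1 the log2 differences of *Trib3*, *Sesn2* and *Ddit4* were 0.15 (95% interval -0.57 to 0.86), 0.22 (-0.12 to 0.56) and 0.02 (-0.36 to 0.40).

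In wild-type islets 5 members were higher at week 8 than at P1 and none was lower, against 15.9% of genes higher and 16.8% lower. *Chac1* rose by 3.26 ± 0.28 on the log2 scale, from a mean of 1003 ± 218.8 to 9524 ± 1283 normalized counts (adjusted p = 1.57e-06 by limma). *Asns* rose by 2.25 ± 0.27 (adjusted p = 2.69e-05) and *Phgdh* by 2.10 ± 0.31 (adjusted p = 1.55e-04). *Mthfd2* rose by 1.11 ± 0.28 (adjusted p = 0.00694) and *Ddit4* by 0.59 ± 0.15 (adjusted p = 0.00712). The remaining 5 members had positive point estimates from 0.42 (*Sesn2*) to 1.06 (*Trib3*). Without week 8 wild-type replicate 2, 9 members were higher, all but *Trib3*, and without P1 wild-type replicate 1 *Psph* (0.91, adjusted p = 0.0312) and *Shmt2* (1.04, adjusted p = 0.0466) were added. When libraries were scaled to the reads outside the acinar markers, the median over all genes moved to -0.46, 3 members stayed called (*Chac1*, *Asns* and *Phgdh*), and the calls were 1401 higher and 7107 lower in place of 2910 and 3077 over all genes. With the acinar share as a covariate in limma no member was called, 1 had an unadjusted p under 0.05, and 7 genes were called in the whole table. In that fit *Chac1* stood at 2.80, *Mthfd2* at 1.32, *Ddit4* at 0.98 and *Asns* at 0.72, and *Phgdh* turned to -0.44. The wild-type acinar shares, 2.108% to 6.60% at P1 and 47.3% to 52.7% at week 8, do not overlap. Those estimates therefore lie outside the range of the data. The wild-type age groups differ in pooling and acinar share as well as in age. The library numbers in the sample titles also form a separate series at each age. These cannot be told apart.

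In null islets 2 members were higher at week 8 than at P1 and 1 was lower, against 21.2% and 25.5% of genes. *Chac1* rose by 1.30 ± 0.28 on the log2 scale (adjusted p = 0.00153 by limma) and *Ddit4* by 0.46 ± 0.15 (adjusted p = 0.0194). *Psat1* fell by 1.097 on the log2 scale (SE 0.38, adjusted p = 0.0273 by limma). *Phgdh* and *Asns*, which rose in wild type, had null differences of -0.50 (95% interval -1.17 to 0.17) and 0.37 (-0.21 to 0.96). These age differences use the same libraries as the genotype comparisons and are not separate evidence. The count was 1 without P1 null replicate 1, when *Psat1* and *Ddit4* were lost, and 5 without P1 null replicate 3, when *Phgdh* (-0.93, adjusted p = 0.00799) and *Shmt2* (-0.86, adjusted p = 0.0332) were also lower. The *Psat1* call was also lost without P1 null replicate 2, MUT219 or MUT229, and the *Ddit4* call without MUT218 or MUT219, while *Trib3* was higher without MUT219 (1.58, adjusted p = 0.00366). Scaling to the reads outside the acinar markers moved the median over all genes to -0.36, added *Phgdh* (-0.84, adjusted p = 0.0338) and removed *Ddit4*. The calls over all genes then were 2046 higher and 6772 lower in place of 3881 and 4677. The length correction ended the *Psat1* call (-0.83, adjusted p = 0.0722) and edgeR added *Trib3* (1.15, adjusted p = 0.0457), whereas with the acinar share as a covariate the same 3 members were called.

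The order of the 4 groups in mean acinar share of reads was P1 wild-type, week 8 null, P1 null, week 8 wild-type. It was also the order of their mean *Phgdh* and *Shmt2* levels, but not of the mean levels of the other members. The acinar shares of week 8 null (12.1% to 22.9%) and P1 null libraries (10.6% to 24.7%) overlapped. Their *Phgdh* values (519 to 637 and 443 to 1167) overlapped too, so the order of these groups is not settled. From P1 to week 8 in null islets, log2 differences of the 30 acinar markers ran from -10.39 to 7.83. The summed share is therefore not the same mix of genes at both ages. Mean *Asns* and *Chac1* were higher in week 8 null islets (4532 and 3437) than in P1 null islets (3708 and 1412). The highest *Phgdh* values, 1486 to 2214, were in the week 8 wild-type libraries with acinar shares of 47.3% to 52.7%. P1 null replicates 1 and 2, at acinar shares of 24.7% and 21.2%, had 1167 and 1017 *Phgdh* normalized counts, whereas replicate 3, at 10.6%, had 443. Among week 8 null animals, MUT219 had the largest acinar share (22.9%) and the lowest *Asns* (3764), *Chac1* (2219) and *Trib3* (608) values. All 30 acinar markers were lower in week 8 null than in week 8 wild-type islets, in the same direction as *Phgdh*, *Asns* and *Chac1*. Some markers of other cell types were also lower: 6 of 6 mesenchyme markers (median -2.27) and 5 of 6 duct markers (-2.31), with 1 duct marker higher. So were 4 of 6 endothelial markers (-0.88) and 2 of 6 macrophage markers (-0.66). None of the 7 alpha cell marker entries was called (-0.36), while 8 of 10 beta cell markers were higher (1.03). Mesenchyme markers took 0.0225% to 0.0531% of reads in wild-type and 0.00886% to 0.0209% in null islets at that age, and the part of these cell types in the members' differences was not tested. With the acinar share as a covariate, the week 8 estimates became 0.20 for *Phgdh*, 0.12 for *Asns* and -1.18 for *Chac1*, against -1.67, -1.005 and -1.51 without it, with no call. The acinar shares of the genotypes do not overlap at either age, so acinar share and genotype cannot be told apart in that model. The points share library, depth and dissection.

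**Figure D3:**
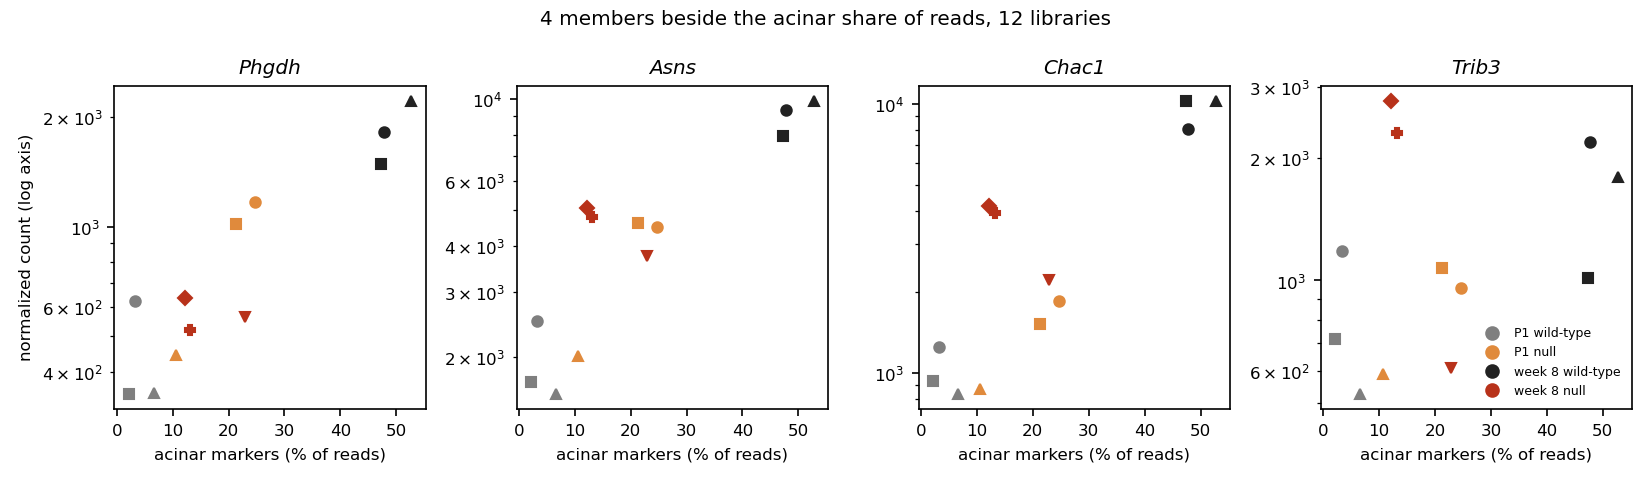
Normalized count (log axis) of *Phgdh*, *Asns*, *Chac1* and *Trib3* against the percentage of assigned reads in the 30 acinar markers, 1 point per library, coloured by group, with the symbols of the plot of values by library. *Phgdh*, *Asns* and *Chac1* are highest in the week 8 wild-type libraries at 47.3% to 52.7%, whereas *Trib3* ranges from 608 to 2772 among the week 8 null animals at 12.1% to 22.9%.

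Animals of 1 genotype differed from each other in many of the members at once. Wild-type replicate 2 had the lowest value of the week 8 wild-type group for 8 of 10 members, all but *Chac1* and *Ddit4*, and MUT219 had the lowest of the null group for 8 of 10, all but *Phgdh* and *Ddit4*. Of 12928 genes averaging at least 50 normalized counts, the corresponding shares were 38.0% and 40.9%. These libraries were singled out after their values were seen, so the counts describe them and are not tested. *Psat1* in wild-type replicate 2 was 42.3% of the mean of the other wild-type animals, *Trib3* 50.9%, *Psph* 52.2% and *Sesn2* 54.3%. In MUT219 *Trib3* was 24.0% of the mean of the other null animals, *Psat1* 50.1%, *Shmt2* 53.9% and *Chac1* 54.9%. *Phgdh* in MUT219 (97.6%) and *Ddit4* in wild-type replicate 2 (97.6%) were close to the other animals of their groups. The 20 cytosolic aminoacyl-tRNA synthetase genes had the same extremes, with 16 lowest in wild-type replicate 2 and 17 lowest in MUT219, whereas no acinar or beta cell marker was lowest in MUT219. Mesenchyme markers were lowest in both of these libraries for 5 of 6 genes, against 19.4% of all genes. In wild-type replicate 2, 5 of 6 duct and 5 of 6 endothelial markers were also lowest. For acinar markers it was 11 of 30 (36.7%), near the 38.0% of all genes. The part of these cells in the members' spread was not tested.

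**Figure D4:**
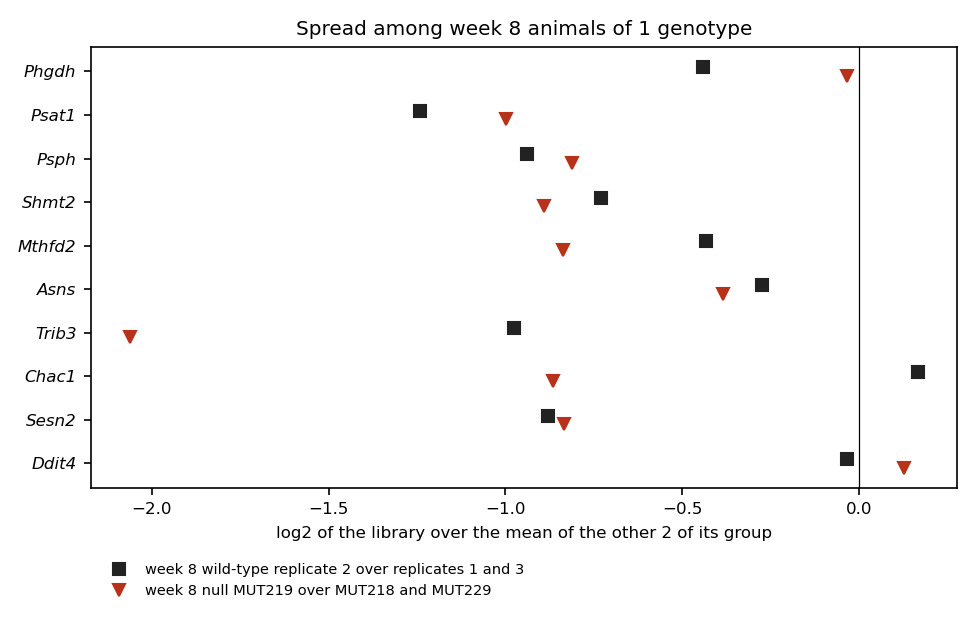
Log2 ratio of week 8 wild-type replicate 2 to the mean of the other wild-type animals (black squares) and of MUT219 to the mean of the other null animals (red triangles), for each member. *Psat1*, *Psph*, *Shmt2*, *Mthfd2*, *Asns*, *Trib3* and *Sesn2* lie below 0 in both, *Phgdh* lies near 0 in MUT219, *Ddit4* lies near 0 in both, and *Chac1* lies below 0 in MUT219 and above 0 in wild-type replicate 2.

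The P1 libraries showed a similar spread. P1 wild-type replicate 1 had the highest value of its group for 9 of 10 members, all but *Sesn2*, against 42.0% of genes, and P1 null replicate 3 had the lowest for 9 of 10, all but *Ddit4*, against 37.6%. Both libraries were likewise singled out after their values were seen, so the counts describe them and are not tested. *Phgdh* in P1 wild-type replicate 1 was 1.79 times the mean of the other wild-type libraries, and *Trib3* was 1.91 times. In P1 null replicate 3 *Phgdh* was 40.6%, *Shmt2* 40.7% and *Asns* 44.2% of the mean of the other null libraries. P1 null replicate 3 also had the lowest acinar share of the P1 null libraries, with all 30 acinar markers at their lowest there. P1 wild-type replicate 1 stood apart in gene length. Its deviations from the mean of all P1 libraries, both genotypes together, had a rank correlation with transcript length of -0.62 over 12918 genes. The correlation was 0.36 and 0.23 in the other P1 wild-type libraries and 0.15 to 0.41 in the P1 null libraries. The part of acinar share or of gene length in the members' spread was not tested. At week 8 the same correlation, over 12559 genes, was -0.05, -0.25 and -0.16 in wild-type replicates 1, 2 and 3. It was 0.12, 0.17 and 0.18 in MUT218, MUT219 and MUT229. The genotype groups did not overlap in it, so this length trend and genotype cannot be told apart at week 8. With the length correction 3 members were called there.

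Other genes of the same pathways were read from lists chosen by function, with earlier results of these data known. Among 12 further ATF4 target genes, 8 were lower and none higher in week 8 null islets, with a median log2 fold change of -1.14. They included *Cth*, the cystathionine gamma-lyase that makes cysteine (-2.58 ± 0.22, adjusted p = 2.95e-04 by limma), the stress-induced regulator *Nupr1* (-2.45 ± 0.28, adjusted p = 5.15e-04), and *Pycr1*, which makes proline (-1.25 ± 0.14, adjusted p = 5.15e-04). Among 12 amino acid transporters, 8 were lower and none higher, with a median of -2.04. The glutamine carrier *Slc1a5* stood at -2.30 ± 0.17 (adjusted p = 2.69e-04), the glycine carrier *Slc6a9* at -2.04 ± 0.21 (adjusted p = 3.89e-04) and *Slc38a5*, which carries glutamine and serine, at -2.33 ± 0.24 (adjusted p = 4.08e-04). The background at week 8 was 15.8% lower and 12.3% higher.

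Of 19 further folate one-carbon and glycine genes, 6 were lower and 1 higher at week 8. The lower genes included the formyltetrahydrofolate dehydrogenases *Aldh1l1* (-2.41 ± 0.30, adjusted p = 7.44e-04 by limma) and *Aldh1l2* (-1.11 ± 0.17, adjusted p = 0.00143) and *Gnmt*, the glycine N-methyltransferase (-2.22 ± 0.32, adjusted p = 0.00123). The gene that rose was *Mthfd1l*, the mitochondrial formate-producing synthetase (0.60 ± 0.16, adjusted p = 0.0178). Among 14 regulators of the integrated stress response, 4 were lower, including *Atf3* (-1.53 ± 0.19, adjusted p = 6.70e-04), the endoplasmic reticulum kinase gene *Eif2ak3* (-0.70 ± 0.14, adjusted p = 0.00482) and *Cebpb* (-0.82 ± 0.23, adjusted p = 0.0246). *Impact*, an inhibitor of the amino acid sensing kinase GCN2, was higher (0.77 ± 0.15, adjusted p = 0.00439). The regulator count of 5 fell to 3 without wild-type replicate 3 or MUT229.

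The 20 cytosolic tRNA synthetases, which charge tRNAs with amino acids, had a median close to 0 (-0.05) at week 8, with 5 lower and none higher. *Wars* (-0.92 ± 0.14, adjusted p = 0.00154 by limma), *Vars* (-0.72 ± 0.11, adjusted p = 0.00158) and *Qars* (-0.47 ± 0.12, adjusted p = 0.0188) had the smallest p-values. That count was 2 without wild-type replicate 3 and 3 without any 1 of the null animals. Among 9 relatives of the members, 5 were lower, led by the asparagine synthetase-like gene *Asnsd1* (-0.68 ± 0.12, adjusted p = 0.00357) and the cytosolic *Shmt1* (-1.20 ± 0.32, adjusted p = 0.0198), and *Sesn3* was higher (1.14 ± 0.15, adjusted p = 8.11e-04). The relatives called numbered 2 without wild-type replicate 3, MUT218 or MUT229. *Shmt1* and *Mthfd2l* are also on the list of folate genes, so the counts of these lists are not separate. With the acinar share as a covariate no gene of any of these lists was called at week 8 by limma, 6 had an unadjusted p under 0.05 (3 ATF4 targets, 2 folate genes and 1 transporter), and the acinar markers fell together with them as given above.

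At P1 no gene of these 6 lists was called by limma, with medians of 0.53 for the ATF4 targets, 0.67 for the transporters, 0.26 for the tRNA synthetases, 0.25 for the regulators, 0.20 for the relatives and 0.07 for the folate genes. An unadjusted p under 0.05 was found for 10 of 12 transporters and 6 of 12 ATF4 targets, against 15.0% of all genes. It was also found for 4 of 19 folate genes, 4 of 14 regulators, 4 of 20 tRNA synthetases and 1 of 9 relatives. DESeq2 called 6 transporters, 2 ATF4 targets, 1 folate gene and 1 regulator at P1, and edgeR called 1 transporter. Over all genes DESeq2 called 619 and edgeR 18. Leaving out P1 null replicate 3 gave 5 transporters by limma, leaving out P1 wild-type replicate 1 gave 3 and leaving out its replicate 3 gave 2. Over all genes the calls were 194, 245 and 79 in the same order. With them, 1 ATF4 target was called without P1 null replicate 3 or P1 wild-type replicate 3, and 1 folate gene without P1 null replicate 3. From P1 to week 8 in wild type, 10 of 12 ATF4 targets, 12 of 20 tRNA synthetases, 9 of 14 regulators, 7 of 12 transporters, 4 of 19 folate genes and 2 of 9 relatives were higher. In that comparison none of the first 3 lists had a lower gene, 2 transporters, 4 folate genes and 3 relatives were lower, and the background was 15.9% higher and 16.8% lower. The tRNA synthetase count was 6 without P1 wild-type replicate 3, week 8 wild-type replicate 1 or week 8 wild-type replicate 3, and 2 higher with 2 lower after scaling to reads outside the acinar markers. The 8 folate genes called fell to 5 without week 8 wild-type replicate 1.

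**Figure D5:**
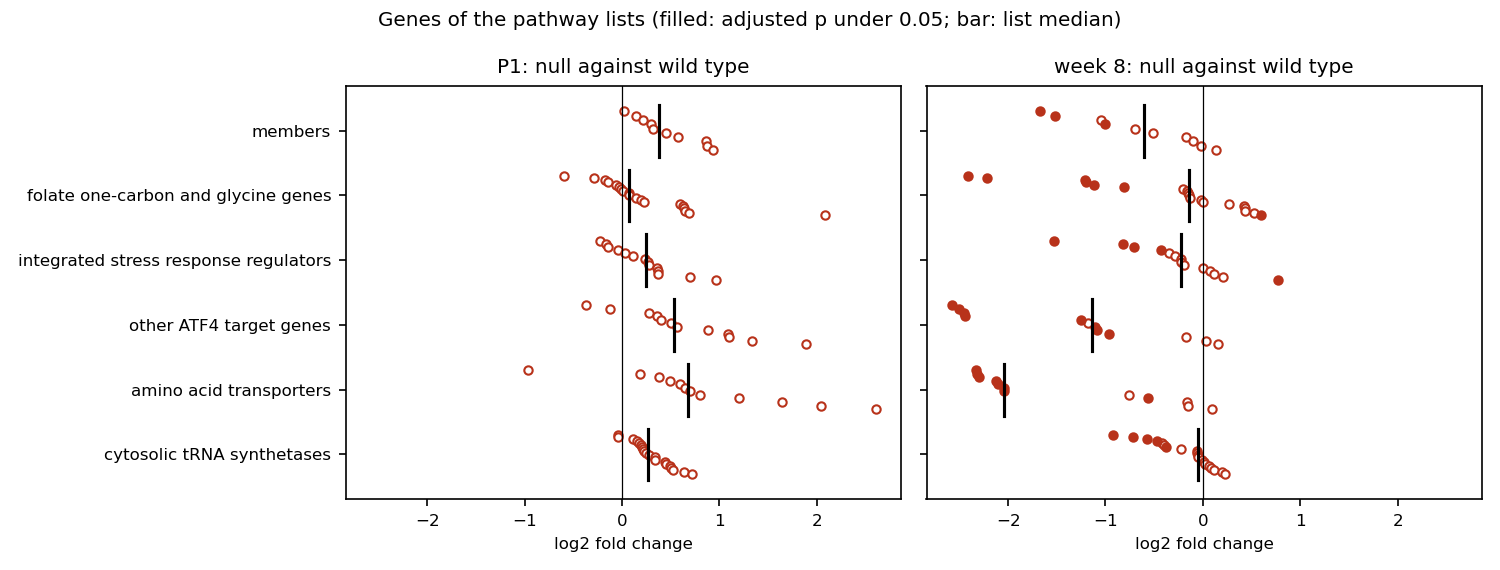
Log2 fold change of null against wild type for each gene of the members and of 5 pathway lists at P1 (left) and week 8 (right); filled points have an adjusted p under 0.05 and the bar is the list median. At P1 no point is filled and the medians lie between 0.07 and 0.67; at week 8 the medians of the ATF4 targets (-1.14) and the transporters (-2.04) lie lowest and that of the tRNA synthetases is -0.05.

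The profile of each member over the 12 libraries was also compared with 11644 genes outside the members by the mean absolute difference of log2 values, each gene centred on its own mean. The closest to *Mthfd2* were the tRNA synthetases *Mars* (0.13) and *Cars* (0.16), those closest to *Shmt2* were *Nars* (0.19) and *Tars* (0.20), and *Psph* was closest to *Nars* (0.15) and *Tmem140* (0.17). *Trib3* was closest to *Ddit3* (0.29), which encodes the stress transcription factor CHOP, and *Angptl6* (0.31). *Chac1* was closest to *Bhlha15* (0.24), which encodes the secretory cell transcription factor MIST1, and *Sult1c2* (0.34). *Phgdh* was closest to *Psmb10* (0.23) and *Osgin1* (0.25), *Asns* to *Sel1l3* (0.18) and *Mgp* (0.19), and *Psat1* to *Morc4* (0.25) and *Phf10* (0.26). *Sesn2* was closest to *Zc3hav1* (0.12) and *Fam83g* (0.12), and *Ddit4* to *Nek3* (0.08) and *Cwc25* (0.10). Between members, the smallest distances were those of *Psph* to *Mthfd2* (0.19), *Psph* to *Sesn2* (0.22), *Psat1* to *Shmt2* (0.24), *Shmt2* to *Mthfd2* (0.25), *Psph* to *Shmt2* (0.28) and *Asns* to *Phgdh* (0.30). These distances describe 12 libraries that share groups and composition, and genes that vary little across libraries, such as *Ddit4* with a mean absolute deviation of 0.26 against 1.17 for *Chac1*, give small distances with many genes.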

How the data were processed

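Islet RNA from 12 libraries was analysed. Per the labels, libraries were strand-specific poly(A) libraries, processed with bedtools 2.11 and DESeq 1.10.1 on mm9 with Ensembl 67; aligner and options: not given in the sources used here. Deposited values are per-gene signal, namely read counts that the authors divided by a size factor per library, so each value divided by that of 1 read gave a whole number (100% of values, tolerance 0.001). The authors' own comparison columns (fold changes and p-values) were not used, and 0 per-sample columns were unmapped. The table holds genes with at least 3 reads in total.

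The members and lists were chosen with earlier results of these data known. limma 3.58.1 (R 4.3.3) was run with trend on log2(value + 1) for genes with a mean of at least 1. Fold changes on this scale understate the change of low genes. Fits were by genotype within each age on 6 libraries and otherwise on all 12, with Benjamini-Hochberg adjustment over all genes. A run on simulated counts checked the recovery of set fold changes. Those counts held no difference in composition or length trend between groups, so the run does not cover such differences. All 10 members are named, and per list at most 3 genes per direction by adjusted p. P-values measure the spread between these libraries. Alternatives were edgeR 4.0.16 and DESeq2 1.42.0 on the recovered reads, TMM factors, pseudocounts of 0.1 and 10, no filter or a mean of at least 50, an adjusted p of 0.1, scaling to reads outside acinar markers, a loess correction for gene length, the acinar share as a covariate, other sets of libraries in the fit, each library left out in turn and a replicate block. Shared 50-base words and overlapping exons were taken from GENCODE vM21, and promoters from RefSeq (GRCm38.p6), which is not the build of the files.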

Additional observations from a re-analysis of the deposited data

Results flagged for a closer look

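For 4 members the genotype difference at week 8 differed from that at P1, by the interaction term of the limma fit on all 12 libraries. The value, as week 8 minus P1 on the log2 scale, was -2.60 for *Phgdh*, -1.91 for *Psat1*, -1.88 for *Asns* and -1.96 for *Chac1*. At P1 the estimates of all 4 were above 0 without a call, and at week 8 *Phgdh*, *Asns* and *Chac1* were lower in null islets while *Psat1* was not called (-1.05, adjusted p = 0.0525 by limma). The acinar share of reads moved in the same directions, higher in null islets at P1 and lower at week 8, and its part in these differences cannot be told apart from that of genotype. With the acinar share as a covariate none was called, and the values were 0.10 for *Phgdh*, -1.12 for *Psat1*, -0.25 for *Asns* and -1.48 for *Chac1*.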

How the results depend on the processing

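At P1 no alternative called a member, and leaving out libraries gave a range of 0 to 0. The week 8 count of 3 was 5 at an adjusted p of at most 0.1, 5 with DESeq2, 0 with the acinar share as a covariate, and 3 to 6 when 1 library was left out. The interaction count of 4 was 0 with the covariate and 3 to 6 when 1 library was left out. The wild-type age count of 5 was 3 with scaling to reads outside the acinar markers, 0 with the covariate and 5 to 9 when 1 library was left out. The null age count of 3 was 2 with the length correction and 4 with edgeR and ranged from 1 to 5 when 1 library was left out. Under the covariate the estimates of called members changed sign for *Phgdh* at week 8 (0.20), *Asns* at week 8 (0.12), the *Phgdh* interaction (0.10) and *Phgdh* with age in wild type (-0.44), and so did the uncalled *Shmt2* (0.10) and *Sesn2* (-0.50) at week 8 and *Shmt2* with age in wild type (-0.24). The acinar shares of the genotype groups do not overlap at either age, nor do those of the wild-type groups between ages. These fits therefore estimate the genotype differences and the wild-type age difference outside the range of the data. Among all genes, scaling to reads outside the acinar markers gave 2945 higher and 2529 lower calls at week 8 in place of 2234 and 2860, and the length correction gave 3143 and 2391, with the same 3 members called, and edgeR on the recovered reads called 5137 genes in place of 5094. For the interaction the length correction gave 3069 and 2291 in place of 1504 and 2486. At P1 the calls over all genes were 12 with limma, 18 with edgeR and 619 with DESeq2, and 0 to 245 when 1 library was left out.

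Replicate numbers are shared by the P1 groups and by the wild-type groups, but the correlations of same-numbered P1 libraries were 0.06, -0.04 and -0.01, so the numbers were not taken to pair the samples. With the replicate block no member was called at P1 (15 genes in place of 12), and in wild type with age 6 members were called, with *Shmt2* (adjusted p = 0.0259) and *Trib3* (0.0192) added and *Ddit4* lost (0.0682). That fit holds the wild-type libraries alone, and without the block the same libraries also gave 6 members, with *Shmt2* added (0.0387) and *Ddit4* kept (0.0357), so the block itself moved *Trib3* and *Ddit4*. With 196 reads or more per member and library, counting error was small beside the spread between libraries of a group.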
